A study of Mus musculus with 32 samples.

Results

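Notch receptors and effectors were followed here as a set of 10 mouse genes: the receptors *Notch1*, *Notch2* and *Notch4*, the ligand *Jag1*, the nuclear complex genes *Rbpj*, *Maml1*, *Maml2* and *Maml3*, the target gene *Hes1* and the ubiquitin ligase gene *Dtx4*. All 10 were found by symbol among the 23620 genes listed in both RNA-seq tables of the study, and peaks were assigned to them by the Ensembl gene ID that each peak carries. The study asked which RNAs the RNA-binding protein IGF2BP3 binds and regulates in leukemia cells driven by the fusion protein MLL-Af4. Lin- cells were lineage-depleted bone marrow cells of C57BL/6J background transduced with an MLL-Af4 retrovirus, selected with G418 and cultured with cytokines that included FLT3, SCF and IL-6. Magnetic selection gave the CD11b+ cells, from the splenic tumors of mice transplanted with MLL-Af4 cells. IGF2BP3 was mapped by eCLIP, in which RNA crosslinked to the protein by UV light is immunoprecipitated and sequenced, in 6 Lin- libraries (3 biological and 3 technical replicates) and 4 CD11b+ libraries (2 biological and 2 technical), all described by the study as WT/MLL-Af4. Each eCLIP library had a size-matched input (smInput), a library of the same size range made from a small portion of the same sample, which the study's methods place after the antibody step. RNA-seq covered, for each cell type, 3 libraries of WT/MLL-Af4 genotype and 3 of I3KO/MLL-Af4 genotype, where I3KO is a germline deletion of *Igf2bp3* exon 2, so every group carried the MLL-Af4 fusion.

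Notch receptors are membrane proteins that are cut after a ligand such as JAG1 on a neighboring cell binds them. The released intracellular part enters the nucleus, joins the DNA-binding protein RBPJ and a Mastermind-like coactivator (MAML1, MAML2 or MAML3) and turns on targets such as *Hes1*, a transcriptional repressor. Notch signaling is best known in blood for T-cell fate and T-cell leukemia. IGF2BP3 is an oncofetal RNA-binding protein with KH and RRM domains, known for binding CA-rich RNA and for stabilizing messenger RNAs.

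IGF2BP3 peaks on the Notch genes included regions at a 3′ splice site in *Notch1* and *Notch2* and CA repeats in introns of *Maml3*. They also included GT or GA repeats in introns of *Notch2* and *Rbpj*. In Lin- cells 12 of 50 regions, and in CD11b+ cells 5 of 29, lay at no 3′ splice site and held no such repeat. Regions at a 3′ splice site made up 38.0% of the Lin- regions, beside 41.2% of Lin- regions over all genes. The 5 sequences below show 3′ splice sites, a CA repeat, a GT repeat and a 5′ splice site. They are DNA letters of the transcribed strand, from the RefSeq copy of GRCm38 (mm10). The first 3 are, for *Notch1*, *Notch2* and *Maml3*, the repeated or shared region found in the most biological replicates (then the most libraries), and the last 2 were chosen after their values were seen. In the *Notch1* sequence (chr2:26469705-26469763, minus strand, intron 23) and the first *Notch2* sequence (chr3:98117147-98117199, plus strand, intron 16), capitals mark exon bases after the 3′ splice site, and the pyrimidine-rich end of the intron precedes them. The intron end in the *Notch1* sequence also holds CACACA, so the kinds are not exclusive. In the *Maml3* sequence (chr3:52008981-52009061, minus strand, intron 1), capitals mark ACACAC or CACACA, and the stretch is the peak with the lowest CLIPper value, the p-value of the peak caller, in a region of 315 bases. In the second *Notch2* sequence (chr3:98090601-98090685, plus strand, intron 5), capitals mark GTGTGT or TGTGTG. In the *Rbpj* sequence (chr5:53642177-53642228, plus strand, intron 4), capitals mark exon bases before the 5′ splice site.
Notch1, 3′ splice site: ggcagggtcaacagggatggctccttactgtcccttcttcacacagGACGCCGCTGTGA
Notch2, 3′ splice site: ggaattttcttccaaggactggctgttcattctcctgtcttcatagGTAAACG
Maml3, CA repeat: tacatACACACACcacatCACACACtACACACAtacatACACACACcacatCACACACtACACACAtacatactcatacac
Notch2, GT repeat: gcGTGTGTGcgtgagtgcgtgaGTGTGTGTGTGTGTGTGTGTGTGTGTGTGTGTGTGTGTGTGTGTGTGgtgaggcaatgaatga
Rbpj, 5′ splice site: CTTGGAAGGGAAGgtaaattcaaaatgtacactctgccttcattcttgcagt

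Each Lin- eCLIP library held between 4040 and 10042 filtered peaks and each CD11b+ one between 7085 and 10054, after the authors removed peaks that overlap a smInput peak. Between 217 and 1808 peaks were called in the Lin- smInput libraries and between 1381 and 1885 in the CD11b+ ones. No pair of libraries shared more than 14.8% of identical peaks. Read depth per library is unknown, so the number of peaks was the measure of yield, and a gene with no peak is not shown to be unbound. *Itgam*, which encodes CD11b, had a mean normalized count of only 16.98 in the CD11b+ table (percentile 41.8) and is not listed in the Lin- table. The other 5 myeloid markers were at 1742 to 84102 in the CD11b+ table and at 582 to 101212 in the Lin- table. Of these only *Mpo* had its larger value in the Lin- table. Of the 6 stem and progenitor markers, *Kit*, *Cd34* and *Flt3* were at 6974, 9052 and 9396 in the Lin- table. In the CD11b+ table they were at 673, 1291 and 390. *Meis1* was at 2452.5 and 356 and *Hoxa9* at 4541 and 2332 (Lin- then CD11b+ table), whereas *Myb* was at 22675.5 and 37516. Summed mean normalized counts of other cell types (Lin- then CD11b+ table) were 139 and 30.8 for T-cell, 137 and 442 for B-cell, 176 and 2381 for erythroid and 7404 and 4067 for endothelial and stromal markers, the last mostly *Pecam1*, and their part in the results was not tested. The T-cell sum of the Lin- table was mostly *Lck* (121), with *Cd4* at 14.8, *Cd3g* at 1.15, *Cd8a* at 1.77 and *Cd3e* not listed, and all 5 T-cell markers lay between 3.11 and 13.5 in the CD11b+ table. *Igf2bp3* had a mean normalized count of 2041 in the Lin- table and 1355 in the CD11b+ table, which each average WT and I3KO libraries, so the knockout could not be checked per library.

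RNA of the receptors *Notch1* and *Notch2*, of *Rbpj* and of *Dtx4* was abundant in both cell types, and RNA of *Notch4*, *Jag1* and *Hes1* was scarce. The values are the authors' means over the 6 libraries of a table, both genotypes together, with no spread, so neighbors in the order below cannot be told apart from ties. Per kb of exon in Lin- cells, the mean normalized count was 838 for *Dtx4*, 719 for *Notch2*, 585 for *Notch1*, 528 for *Rbpj*, 401 for *Maml3* and 310 for *Maml1*. *Maml2* followed at 65.3, *Hes1* at 24.2, *Jag1* at 7.999 and *Notch4* at 2.33. The ligand, the target gene and the receptor Notch4 were thus below the coactivator *Maml2*, the least abundant of the nuclear complex genes.

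In CD11b+ cells the same scale, mean normalized count per kb of exon, gave 398 for *Dtx4*, 393 for *Notch2*, 339 for *Notch1*, 337 for *Rbpj* and 191 for *Maml1*. *Maml3* was at 61.6, *Maml2* at 22.6, *Jag1* at 12.6, *Hes1* at 5.32 and *Notch4* at 2.26. *Maml3* stood above *Maml1* in the Lin- table and below it in the CD11b+ table. Among all genes of its table, *Maml3* held percentile 92.6 in Lin- cells and 73.0 in CD11b+ cells, while *Notch2* held 97.7 and 96.2. The tables were normalized separately, so levels were not tested between cell types, and in bulk RNA fewer cells of a type and less RNA per cell cannot be told apart.

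IGF2BP3 peaks were found on 6 of the 10 genes in each cell type. In Lin- cells these were *Notch1*, *Notch2*, *Rbpj*, *Maml1*, *Maml3* and *Dtx4*, against 26.5% of the 26560 listed genes with a peak in any Lin- library. In CD11b+ cells they were *Notch1*, *Notch2*, *Rbpj*, *Maml1*, *Maml2* and *Maml3*, against 25.6% of 25887 genes. These shares were larger for well expressed genes: of genes with a mean normalized count of at least 1000, 76.5% had a peak in Lin- cells, as did 6 of 6 Notch genes at that level, and 68.4% had one in CD11b+ cells, as did 4 of 5 Notch genes. *Dtx4* was the exception, with a mean normalized count of 2081 in CD11b+ cells and no peak in any of the 4 libraries. *Notch4*, *Jag1* and *Hes1* had no peak in any eCLIP library.

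A peak in at least 2 biological replicates was a stricter rule. It held for all 6 genes in Lin- cells (background 13.7%) and for *Notch1*, *Notch2* and *Rbpj* in CD11b+ cells (background 10.2%). Both backgrounds are over listed genes of any RNA level, and no share for well expressed genes was computed for this rule. *Maml1* and *Dtx4* met the rule only through different regions of 3 reads, each from 1 library. The plot of RNA level and regions sets *Maml3* apart from *Dtx4* by number of regions. *Dtx4* had a higher RNA level per kb of exon than *Maml3* in both tables and 3 regions in all, each from 1 Lin- library, whereas *Maml3* had 14 Lin- and 7 CD11b+ regions. These counts are not scaled by gene length: *Maml3* spans 419 kb and *Dtx4* 35.1 kb. Per 100 kb of gene, *Dtx4* had 8.54 Lin- regions and *Maml3* 3.34, and in CD11b+ cells they had 0 and 1.67.

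**Figure D1:**
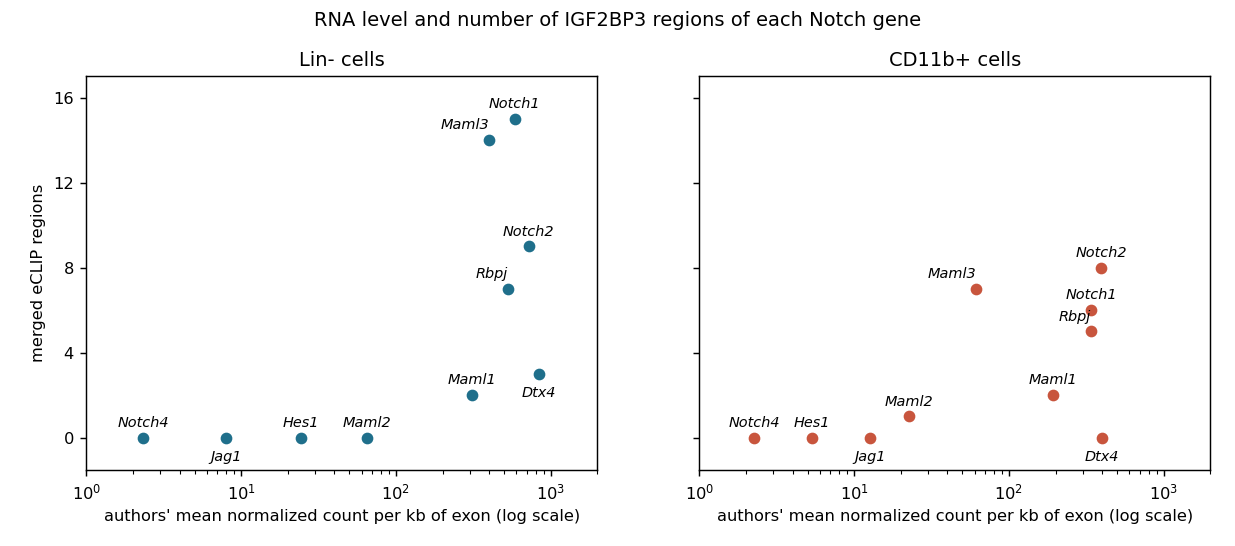
Authors' mean normalized count per kb of exon (x axis, log scale) and number of merged eCLIP regions (y axis) of each Notch gene in Lin- cells (left) and CD11b+ cells (right), 1 point per gene. *Notch4*, *Jag1* and *Hes1* lie at 0 regions in both panels, and *Maml3* has 7 regions in CD11b+ cells at a level of 61.6.

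Peaks per library were then counted for each gene, from the filtered eCLIP peaks. *Notch1*, a receptor, had 4, 6 and 3 peaks in the biological Lin- replicates and 3, 5 and 0 in the technical ones. In CD11b+ cells *Notch1* had 1 and 6 peaks in the biological replicates and 2 and 0 in the technical ones, so the cell types overlapped. *Notch2*, the other well expressed receptor, had 2, 5 and 4 peaks in the biological Lin- replicates and 1 in each technical one. In CD11b+ cells *Notch2* had 5 and 6 peaks in the biological replicates and 6 in each technical one. The number of *Notch2* peaks was thus alike in all CD11b+ libraries, though not every region was found in each.

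*Rbpj*, the DNA-binding partner of the cut receptor, had 2, 5 and 1 peaks in the biological Lin- replicates and 0, 2 and 1 in the technical ones. In CD11b+ cells *Rbpj* had 5 and 2, then 4 and 3. *Maml3*, a coactivator of that complex, had 3, 14 and 9 peaks in the biological Lin- replicates and 1, 14 and 5 in the technical ones. In CD11b+ cells all 9 *Maml3* peaks came from replicate 2 (5 peaks) and technical replicate 4 (4 peaks), with 0 in the other two. *Maml1* and *Dtx4* had at most 1 peak in any library, and *Maml2* a single peak in 1 CD11b+ library.

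**Figure D2:**
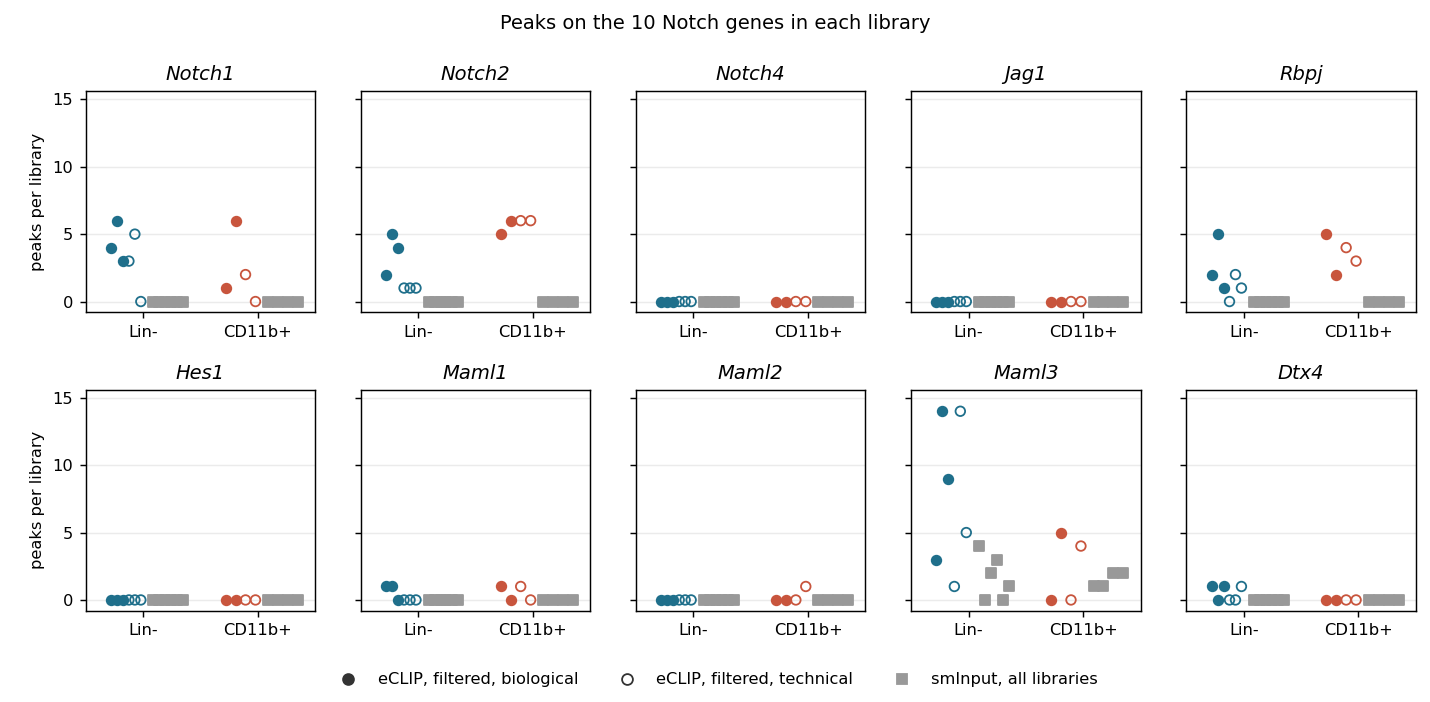
Number of peaks (y axis) on each of the 10 genes in every library, by cell type (x axis), with filled circles for biological and open circles for technical eCLIP replicates after the smInput filter and grey squares for smInput libraries. *Maml3* reaches 14 peaks in 2 Lin- libraries and is the only gene with smInput peaks.

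The cell types were compared on peaks per 1000 peaks of the library, so that libraries with more peaks did not count for more. Over the 10 genes, the biological Lin- replicates had 1.77, 3.09 and 2.07, and the CD11b+ replicates 1.41 and 1.89. The mean was 2.31 ± 0.69 (SD, n = 3) against 1.65 ± 0.34 (SD, n = 2). The groups overlapped, and the difference of 0.66 did not pass an exact two-sided permutation test (p = 0.4; 10 splits allow no p below 0.1). *Maml3* carried this difference: without it the value was -0.038 (exact permutation p = 0.7), an alternative added after seeing the data. Restricted to peaks with a CLIPper value below 0.001, the difference was 0.023 (exact permutation p = 1).

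*Notch2* was the only gene of the set whose biological replicates did not overlap. It had 0.272, 0.498 and 0.461 peaks per 1000 in the Lin- replicates and 0.587 and 0.597 in the CD11b+ replicates, both of which lay above every Lin- one. The exact two-sided permutation test of the means gave p = 0.2. Of all 23620 genes, 3.94% had every CD11b+ replicate above every Lin- one, and 3.29% the reverse, which none of the Notch genes showed. Among genes with a mean normalized count of at least 1000 in both tables the shares were 12.2% and 13.5%, so 1 of 5 Notch genes in the first direction and 0 of 5 in the second is near what genes at this level show. *Maml3* had 0.408, 1.39 and 1.04 peaks per 1000 in Lin- cells and 0 and 0.497 in CD11b+ cells, which overlap (exact permutation p = 0.3).

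The smInput libraries gave the background of each eCLIP library. For this comparison peaks before the filter were used on both sides. In Lin- cells the 10 genes had 17, 31 and 20 eCLIP peaks in the biological replicates and 4, 0 and 2 smInput peaks, a difference in means of 20.7 (exact permutation p = 0.1, the smallest that 20 splits allow). In CD11b+ cells they had 12 and 19 eCLIP peaks and 1 and 1 smInput peaks, a difference of 14.5 (exact permutation p = 0.333, the smallest that 6 splits allow). The eCLIP and smInput counts did not overlap in either cell type, but smInput libraries also held fewer peaks in total and were called with other settings. Per 1000 peaks of the library the Lin- difference was 0.947 (exact permutation p = 0.3), and the groups overlapped, with 1.87, 2.67 and 2.02 in eCLIP and 2.21, 0 and 1.5 in smInput. The CD11b+ difference was 0.869 (exact permutation p = 0.333, the smallest possible), with 1.26 and 1.61 in eCLIP above 0.601 and 0.531 in smInput.

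All smInput peaks on the Notch genes lay in introns of *Maml3*. A *Maml3* stretch of smInput peaks (chr3:52008832-52009069) was found in 4 of 6 Lin- and 2 of 4 CD11b+ smInput libraries and overlapped the strongest eCLIP region. Of the 15 *Maml3* regions 5 overlapped a smInput peak of some library, and the filter had removed 11 Lin- peaks and 1 CD11b+ peak on *Maml3*. No peak on the other 9 genes was removed by the filter. When peaks were removed wherever any smInput library of their cell type had a peak, also an alternative added after seeing the data, the *Maml3* difference between the cell types fell from 0.697 to 0.301 peaks per 1000 (exact permutation p = 0.3 and 0.5).

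Peaks that overlapped, in the same or different libraries of 1 cell type, were joined into regions, 50 of them Lin- and 29 CD11b+, of 20608 and 17735 in all. Taken over both cell types there were 64 regions, of which 14 were found in both, 36 in Lin- cells only and 14 in CD11b+ cells only. In 31 of the 64 a single library gave the region. Of the Lin- regions 28% (14 of 50, 95% Wilson interval 17.5 to 41.7) overlapped a CD11b+ region, beside 25.1% of all Lin- regions. Of the CD11b+ regions 51.7% (15 of 29, interval 34.4 to 68.6) overlapped a Lin- region, beside 29.7% of all. *Maml3* gave 6 of these, and without it the share was 40.9% (9 of 22, interval 23.3 to 61.3). These intervals cover counting error only, and regions of one gene are not replicates.

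Most regions lay in introns by their midpoint: 90.0% in Lin- cells (45 of 50, Wilson interval 78.6 to 95.7) and 93.1% in CD11b+ cells (27 of 29, interval 78.0 to 98.1). Over all genes the shares were 77.5% and 83.7%. Where any overlap with an exon made a region exonic, the shares were 50% and 75.9%. The 7 regions with their midpoint in an exon were in the first exon of *Notch1* (2), *Notch2* and *Rbpj* and in the 3′ UTR of *Notch2*, *Rbpj* and *Dtx4*.

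The share of regions at a 3′ splice site was near that of all regions in each cell type. It differed between the cell types over all genes too. A region was taken as at a 3′ splice site if it came within 20 bases of the first base of an exon, a measure chosen after the positions were seen and therefore not tested. In Lin- cells 8 of 15 *Notch1* regions and 6 of 9 *Notch2* regions were at a 3′ splice site, as were 2 of 7 *Rbpj* regions, 1 of 2 *Maml1* regions and 2 of 3 *Dtx4* regions. None of the 14 *Maml3* regions was. Together this was 38.0% of the Lin- regions (19 of 50, Wilson interval 25.9 to 51.8), beside 41.2% of all Lin- regions. In CD11b+ cells it was 10.3% (3 of 29, interval 3.6 to 26.4), beside 10.8% of all. These were 2 of 6 *Notch1* regions and 1 of 8 *Notch2* regions. The Lin- intervals of *Notch1* (30.1 to 75.2) and *Notch2* (35.4 to 87.9) included the 41.2% of all Lin- regions. Without *Maml3* the share was 52.8% in Lin- cells (19 of 36, interval 37.0 to 68.0) and 13.6% in CD11b+ cells (3 of 22, interval 4.75 to 33.3).

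Per library, the share of peaks on the Notch genes at a 3′ splice site was 46.2%, 19.4% and 33.3% in the biological Lin- replicates, with 13, 31 and 18 peaks. In the CD11b+ replicates it was 8.33% and 15.8%, with 12 and 19 peaks. The Lin- mean was 32.9% ± 13.4 (SD, n = 3) and the CD11b+ mean 12.1% ± 5.3 (SD, n = 2), with every Lin- replicate above both CD11b+ ones. Over all genes the same share was 57.0%, 19.4% and 42.5% in the Lin- replicates and 10.8% and 9.46% in the CD11b+ ones, so Lin- replicate 2 stood below the other two for the Notch genes and for all genes. Without Lin- replicates 2 and 5, the 2 Lin- libraries with the smallest share over all genes and an alternative added after seeing the data, 50% of the Notch regions in Lin- cells were at a 3′ splice site (14 of 28), beside 51.2% of all Lin- regions from the same libraries.

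Repeats were searched as 6-letter words on the transcribed strand: the CA words ACACAC or CACACA, the GT words GTGTGT or TGTGTG, and the GA words GAGAGA or AGAGAG. The GT words are the CA words of the other strand. A region can hold more than one word. The CA words were in 28% of the Lin- regions of the Notch genes (14 of 50, Wilson interval 17.5 to 41.7), beside 8.35% of all Lin- regions, and in 34.5% of the CD11b+ regions (10 of 29, interval 19.9 to 52.7), beside 17.03% of all. *Maml3* gave most of them: without *Maml3* the shares were 2.78% (1 of 36) and 13.6% (3 of 22). The GT words were in 8.0% of the Lin- regions (4 of 50) and 27.6% of the CD11b+ regions (8 of 29), beside 8.09% and 24.0% of all regions. The GA words were in 4.0% (2 of 50) and 24.1% (7 of 29), beside 2.99% and 11.3%. In the plot of kinds of region, each region is counted once, with the 3′ splice site first.

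**Figure D3:**
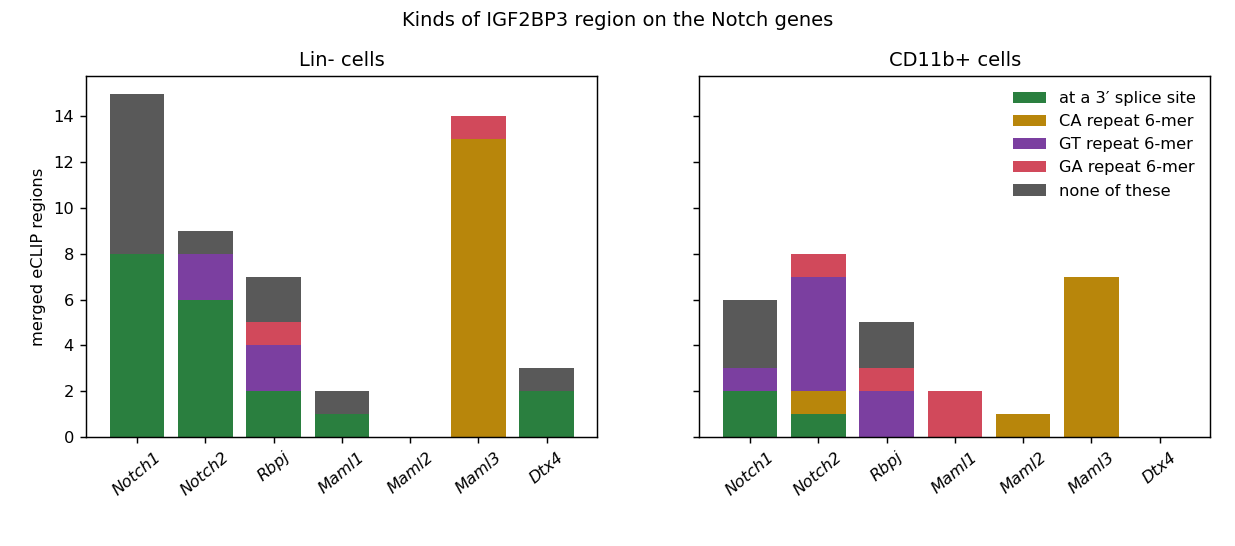
Number of merged eCLIP regions (y axis) on each Notch gene with a region (x axis) in Lin- cells (left) and CD11b+ cells (right), colored by kind in the order 3′ splice site, CA, GT, GA, none. Of the 14 *Maml3* regions in Lin- cells 13 hold a CA word, 8 of 15 *Notch1* regions in Lin- cells are at a 3′ splice site, and 5 of 8 *Notch2* regions in CD11b+ cells count as GT.

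*Notch1* (ENSMUSG00000026923, chr2:26457903-26516663, minus strand) held 17 regions over both cell types, 4 of them in both. Of these, 10 lay in introns 23 to 32, toward the 3′ end of the gene, as the plot of regions along the genes shows. The region with the most reads, chr2:26469705-26469763, is the 3′ splice site of exon 24 printed above. It was found in Lin- replicates 2, 3 and 5 with up to 23 reads (the last number of a peak's name, read as its reads) and in CD11b+ replicates 2 and 3 with up to 5 reads, with a best CLIPper value of 3.7e-18. Downstream in intron 24, chr2:26469577-26469621 touched the 5′ splice site of the same exon and was found in Lin- replicate 5 (6 reads) and CD11b+ replicate 2 (4 reads).

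The other 3 *Notch1* regions that were repeated or shared lay in introns 26, 7 and 1. In intron 26, chr2:26467586-26467631 touched a 5′ splice site and was found in CD11b+ replicates 1, 2 and 3 with up to 10 reads and in no Lin- library. In intron 7, chr2:26480048-26480102 reached a 3′ splice site in Lin- replicate 1 (6 reads) and CD11b+ replicate 2 (4 reads). In intron 1, chr2:26502480-26502535 lay 521 bases from the nearest 3′ splice site, held no repeat word, and was found in Lin- replicates 1 and 2 with up to 5 reads and in CD11b+ replicate 2 with 11 reads. The other 12 *Notch1* regions were not repeated in 2 biological replicates. Of the *Notch1* peaks 38.1% of the Lin- ones and 22.2% of the CD11b+ ones had fewer than 5 reads.

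*Notch2* (ENSMUSG00000027878, chr3:98013527-98150361, plus strand) held 15 regions, 2 of them in both cell types. The first is the 3′ splice site of exon 17 printed above, found in Lin- replicates 2 and 3 with up to 6 reads and in all 4 CD11b+ libraries with up to 12 reads. The second is the GT repeat of intron 5, found in Lin- replicate 2 with 4 reads and in all 4 CD11b+ libraries with up to 13 reads. The GT word ran through much of this region, with 54 of 85 bases in capitals above.

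GT repeats in the first introns of *Notch2* were found in CD11b+ cells and in no Lin- library. In intron 1, chr3:98032196-98032256 was found in CD11b+ replicates 1, 2 and 3 with up to 19 reads. In intron 2, chr3:98062620-98062696 was found in replicates 1, 2 and 4 with up to 12 reads, and its neighbor chr3:98062523-98062608 in replicates 2, 3 and 4 with up to 28 reads. In Lin- cells only, chr3:98124100-98124152, at the 3′ splice site that ends intron 20, was found in replicates 1 and 2 with up to 4 reads. Peaks with fewer than 5 reads made up 57.1% of the Lin- and 8.70% of the CD11b+ peaks on *Notch2*, beside 36.8% and 23.7% of all peaks. Restricted to CLIPper values below 0.001, the *Notch2* difference was -0.685 peaks per 1000, Lin- minus CD11b+ (exact permutation p = 0.1, the smallest possible). This alternative was added after seeing the data, for a gene already picked out, and no share of all genes was computed at this threshold.

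*Rbpj* (ENSMUSG00000039191, chr5:53466152-53657362, plus strand) held 9 regions, 3 of them in both cell types, and all 3 were repeats. In intron 8, chr5:53651820-53651946 held GT words and was found in Lin- replicate 2 with 10 reads and in all 4 CD11b+ libraries with up to 24 reads. In intron 1, chr5:53599358-53599411 held GT words too, in Lin- replicate 2 (4 reads) and CD11b+ replicates 1 and 4 (up to 7 reads). Its most repeated Lin- region carried no repeat word: chr5:53642177-53642228, the 5′ splice site that starts intron 4, was found in all 3 biological Lin- replicates and in replicate 6 with up to 9 reads, and in no CD11b+ library. The CD11b+ libraries also had a region in the 3′ UTR of *Rbpj*, in replicates 1 and 3 with up to 11 reads.

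**Figure D4:**
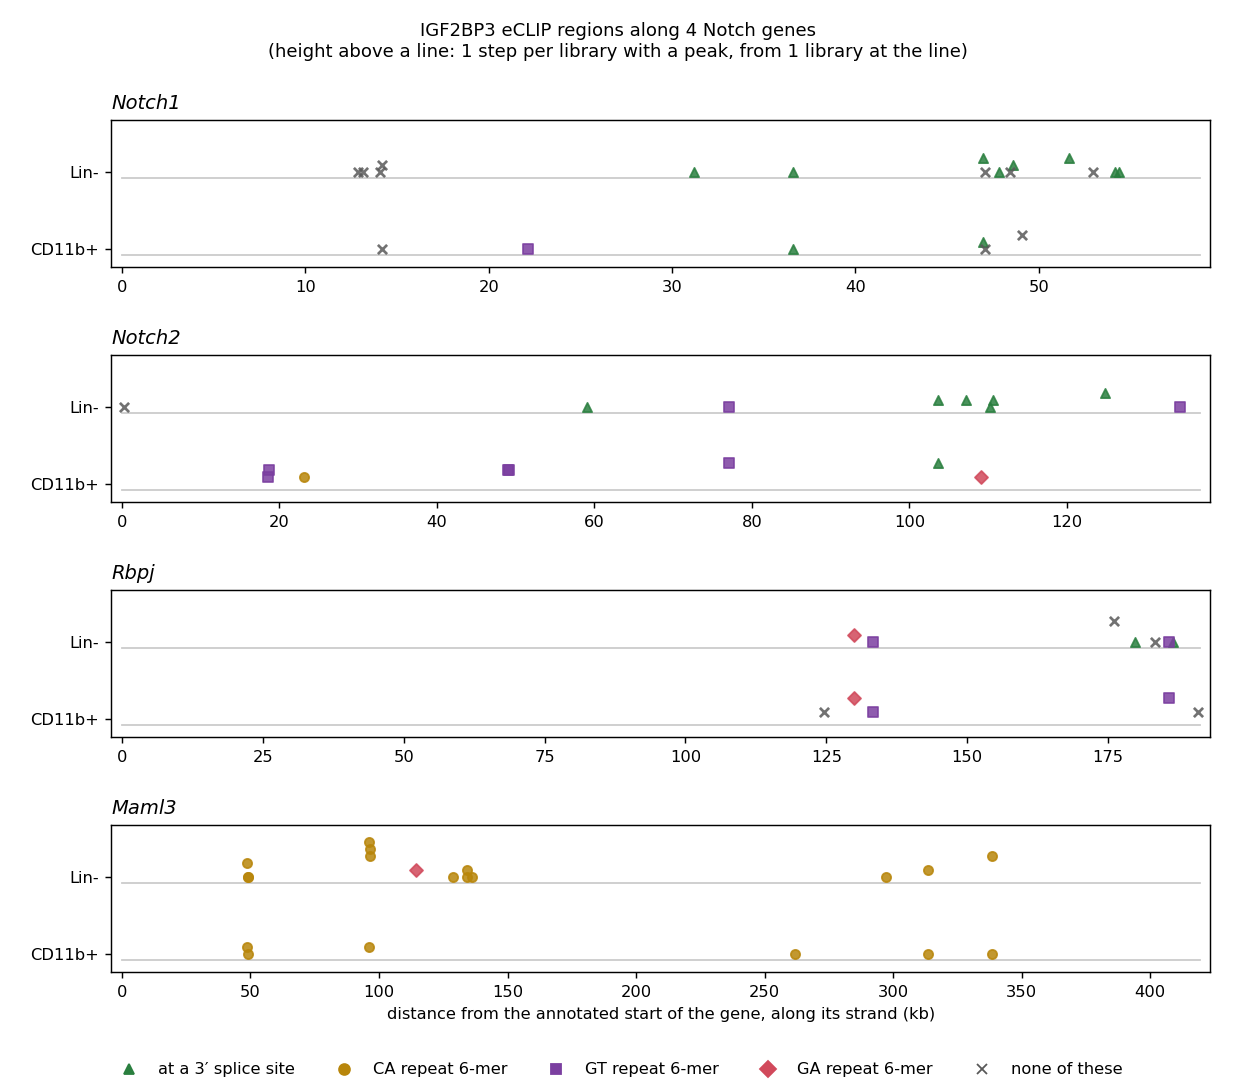
Merged eCLIP regions along *Notch1*, *Notch2*, *Rbpj* and *Maml3*, placed by distance from the annotated gene start along its strand (x axis, kb), with Lin- and CD11b+ regions on separate lines, 1 step up for each further library with a peak, and the symbol giving the kind of region. Green triangles for 3′ splice sites gather in the Lin- lines of *Notch1* and *Notch2*, and the *Maml3* lines hold CA repeats.

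*Maml3* (ENSMUSG00000061143, chr3:51685907-52105076, minus strand) held 15 regions, all in introns 1 (11 regions) and 2 (4 regions). A CA word was in 14 of them. The largest, chr3:52008752-52009066, 315 bases and masked as repeat over its whole length in the genome copy, was the only region of the set found in all 6 Lin- libraries, with up to 80 reads and a best CLIPper value of 3.6e-99. It was also found in CD11b+ replicates 2 and 4 with up to 17 reads, and in the smInput libraries described above. Just downstream of it, chr3:52008498-52008565 was found in 5 Lin- libraries (up to 21 reads) and chr3:52008566-52008642 in 4 (up to 25 reads), each with a smInput peak in 1 Lin- library.

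Other *Maml3* repeats lay far from that cluster. In intron 2, chr3:51766508-51766549 was found in Lin- replicates 2, 3, 5 and 6 with up to 36 reads and in CD11b+ replicate 2 with 4 reads, and chr3:51791350-51791386 in Lin- replicates 2 and 5 (up to 9 reads) and CD11b+ replicate 2 (6 reads). Neither overlapped a smInput peak. In intron 1, chr3:52056279-52056333 was found in Lin- replicates 2, 3 and 5 (up to 34 reads) and CD11b+ replicates 2 and 4 (up to 9 reads), and chr3:52056141-52056192 in 1 library of each cell type. Both overlapped a smInput peak in Lin- cells. *Maml3* peaks in Lin- cells had a median of 13.5 reads, beside 4 to 5 for *Notch1*, *Notch2* and *Rbpj* and 6 for all peaks. Replicates 2 and 5, whose peaks had more reads over all genes, gave most of the 46 *Maml3* peaks. Without these libraries, which were left out after seeing the data, the median was 10.5 reads for the remaining 18 *Maml3* peaks, 3 to 4.5 for the same 3 genes and 5 for all peaks.

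The remaining genes with peaks had no region in 2 biological replicates. *Maml1*, a coactivator, had 4 regions of 1 library each: the 3′ and the 5′ splice site of intron 2 in Lin- cells (3 reads each) and GA-containing stretches of intron 1 in CD11b+ cells (5 and 9 reads). *Maml2*, a further coactivator, had 1 CA-containing region of 4 reads in CD11b+ replicate 4. *Dtx4*, which encodes an E3 ubiquitin ligase of the Deltex family, had 3 regions of 3 reads each in Lin- cells, at the 3′ splice sites that end introns 1 and 4 and in the 3′ UTR. At a CLIPper value below 0.001, 4 of the 10 genes had a peak in Lin- cells, where 13.9% of all listed genes did, and 5 of the 10 had one in CD11b+ cells, where 14.2% did. Both of these shares cover listed genes of any RNA level.

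Other genes of the pathway were read from a list of 41, of which 39 were listed in the Lin- table and 40 in the CD11b+ table. A peak was found on 22 of 39 in Lin- cells (56.4%) and 23 of 40 in CD11b+ cells (57.5%), beside 26.5% and 25.6% of all listed genes. In at least 2 biological replicates a peak was found on 13 and 14, beside 13.7% and 10.2% of all listed genes. These background shares cover genes of any RNA level. At a mean normalized count of at least 1000, 16 of 21 had a peak in Lin- cells and 12 of 17 in CD11b+ cells, beside the background shares of 76.5% and 68.4%. Among the genes of the list with the most regions in Lin- cells were *Ep300* (12), *Spen* (8), *Mib1* (7) and *Crebbp* (6). In CD11b+ cells they included *Spen* (10), *Mib1* (7), *Ep300* (5) and *Aph1c* (4). *Ep300* and *Crebbp* encode acetyltransferases that act with Mastermind-like proteins, *Spen* a corepressor that acts with RBPJ, *Mib1* a ubiquitin ligase for Notch ligands and *Aph1c* a subunit of gamma-secretase, which cuts the receptor. Of the 70 Lin- regions on the list 40% were at a 3′ splice site and of the 66 CD11b+ regions 12.1%, beside 38.0% and 10.3% for the Notch genes.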

How the data were processed

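The members and gene lists were chosen with earlier results of these data known, and splice-site and GT or GA measures after the positions were seen. For eCLIP, the authors mapped and deduplicated reads on mm10, called peaks per library with CLIPper (largest deposited value 0.05) and removed peaks over smInput peaks. Per the file headers, eCLIP and smInput libraries differed in deduplication and CLIPper settings. The deposited peak value has no column name and was taken for CLIPper's p-value, and the last number of a peak name as its reads. For RNA-seq, the authors used STAR 2.5.3a, Bowtie2 and DESeq2 (submitters' processing notes). The authors' deposited tables hold a signal per gene, which the authors made by dividing read counts by DESeq2 size factors and averaging over all libraries of a table (mean normalized count, the only column used) and columns of the genotype comparison (fold change, error, statistic, p-value, adjusted p-value and peak marks), which were not used. Effects of I3KO on these genes were therefore not analysed here.

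Peaks were merged where they overlapped by at least 1 base on 1 strand of 1 gene. Positions came from GENCODE M21 (basic set) and sequence from GRCm38. Of all peaks 99.0% carried an ID of that annotation, and 99.5% of these lay on its gene and strand. Tests were exact two-sided permutations of the difference in means over biological replicates, since the labels do not say which sample a technical replicate repeats. Nor do they say whether biological ones came from separate animals. A permutation p-value is the share of splits of these samples whose absolute difference in means is at least the observed one. With so few samples its smallest value is set by the number of splits. Shares carry 95% Wilson intervals. Each smInput comes from the material of the eCLIP library of the same number, by library names and the study's methods, whereas numbers do not pair the cell types. Alternatives changed replicates, filter, CLIPper threshold, gene assignment, scaling, overlap, annotation rule and motif. Named were the 10 genes, the 5 list genes with most regions per cell type, and regions repeated in 2 biological replicates or found in both cell types; some of these are not reported here. Scripts used Python 3.11.15, pandas 2.3.3, NumPy 2.4.6, SciPy 1.17.1 and matplotlib 3.10.9, and were tested on simulated data.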

Additional observations from a re-analysis of the deposited data

Results flagged for a closer look

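Among 36 groups of libraries checked, 1 held a library apart from the others, where chance alone flags about 1 in 20. On *Notch2* in CD11b+ cells, replicate 1 had 5 filtered peaks and the other 3 libraries had 6 each, a difference of 1 peak.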

How the results depend on the processing

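Of 124 values recomputed under the alternatives, most kept their direction and their side of the threshold. For tests on biological replicates only, the side was fixed in advance, since no p could pass the threshold. The difference in peaks per 1000 over the 10 genes ranged from 0.270 to 0.931 when each biological replicate was left out, lowest without Lin- replicate 2, and was -0.038 without *Maml3*. For *Notch1* the same range was -0.10 to 0.378, turning below 0 without CD11b+ replicate 1, and for *Rbpj* -0.292 to 0.096, turning above 0 without the same replicate. With technical libraries counted as separate samples, the eCLIP minus smInput difference passed the threshold at 16.3 peaks in Lin- cells (exact permutation p = 0.00216) and 13.2 in CD11b+ cells (exact permutation p = 0.0286), and so did the *Notch2* difference at -0.396 (exact permutation p = 0.00952), but these p-values treat repeats of a sample as independent. The eCLIP minus smInput difference ranged from 15.5 to 24.5 in Lin- cells and from 11 to 18 in CD11b+ cells when a replicate was left out. With the replicate block, in which each eCLIP library was paired with its smInput, it stayed at 20.7 and 14.5. The block test flips the sign of each paired difference (exact sign-flip p = 0.25 and 0.5, the smallest that 3 and 2 pairs allow). Pairing replicates 1 and 2 of the cell types gave 0.778 peaks per 1000 (exact sign-flip p = 0.5, also the smallest possible). The block could therefore change no call. Genes with a peak in CD11b+ cells numbered 3 where at least 2 biological replicates were required, and 4 where 1 biological replicate and the technical libraries were left out, but 6 where either biological replicate alone was left out. Intronic shares were 50% and 75.9% where any overlap with an exon counted as exonic. The CA share in Lin- cells was 42% with the 4-letter words ACAC and CACA, and without *Maml3* the CA shares were 2.78% and 13.6%. Few replicates limit every test here, since 3 against 2 allow no p below 0.1, and read depth is unknown.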
